A study of Mus musculus with 12 samples.

Results

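The genes that build the 4 classes of cell-cell junction were followed in epithelial cells sorted from mouse skin wounds. They were 35 genes chosen by name: 10 of desmosomes, 10 of adherens junctions (with the nectins and Epcam), 11 of tight junctions and 4 of gap junctions. All 35 were found among the 55341 rows of the deposited count table and all 35 passed the filter on low counts. The wounds were taken 3 days after wounding as a ring of 0.25 mm around the wound edge, and live cells that carried Epcam and integrin alpha6 but not CD45, CD31 or CD117 were sorted. The 12 libraries were RORγt-deficient A5-positive cells, RORγt-deficient A5-negative cells, wild-type A5-positive cells and wild-type A5-negative cells, with 3 libraries in each group. A5 stands for surface integrin alpha5: the labels take A5-positive cells as the migrating front of the epithelium and A5-negative cells as the epithelium of the wound edge. The RORγt-deficient animals carry a GFP knock-in; their cells were pooled from 2 or 3 mice per library, as were those of wild-type mice. Nothing in the labels limits the deficiency to a cell type, and no label gives the age, sex or strain of the animals.

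Desmosomes couple the keratin filaments of neighbouring keratinocytes through desmogleins and desmocollins, the plaque proteins plakoglobin and plakophilin, and desmoplakin. Adherens junctions join actin networks through cadherins and catenins and through nectins and afadin; tight junctions seal the space between cells with claudins, occludin and zonula occludens scaffolds; gap junctions are channels of connexins that pass small molecules between cells. In skin wounds, keratinocytes at the front migrate over the wound bed as a sheet that stays joined, and loosened desmosomes and altered connexins are long-known features of that front.

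Total counts were 29293687 to 74563616 per library. Levels are given as CPM, counts relative to the library's total, scaled with TMM factors that correct for composition, and the 3 values of a group always stand in the order of library numbers 1, 2 and 3. Itga5, which encodes the sorted integrin, had 107, 122 and 137 CPM in A5-positive against 53.997, 61.3 and 47.4 CPM in A5-negative cells of RORγt-deficient mice, and 85.1, 101 and 97.2 CPM in A5-positive against 51.97, 42.2 and 46.3 CPM in A5-negative cells of wild-type mice; the fractions did not overlap, as the sort had selected for them. The keratin genes Krt5 and Krt14 were at 9117 CPM or more in every library. Summed markers of fibroblasts (11 of 11 detected) were at 6661 to 17871 CPM in A5-positive and 838 to 2225 CPM in A5-negative libraries, and 10 of the 11 rose in A5-positive cells (11 with the replicate number in the model). Summed Langerhans and dendritic cell markers (8 of 8 detected) reached 3264 CPM in wild-type A5-negative library 1 against 286 to 1163 CPM in the other libraries, and macrophage markers (12 of 12) 1429 CPM there against 92.5 to 633 CPM elsewhere. T cell markers summed to 0.86 to 4.5 CPM, and 6 of 7 were at 0 in some library. Langerhans cells also make Epcam, Cdh1 and Cldn1, and fibroblasts Gja1; the part of these markers in the results below was not tested.

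Libraries with the same number deviated together from their group means, so a model with the number as a block was set beside the main model without it. "Called" means an adjusted p under 0.05 from edgeR's quasi-likelihood test, with Benjamini-Hochberg adjustment over all 16677 genes tested in that comparison; log2 fold changes are given ± their standard error. Pairs are the libraries of equal number. The labels do not say whether both fractions of a genotype and number came from the same mice. If they did, the 6 pairs between genotypes rest on 3 pools per genotype, and neither model has a term for that.

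Per kilobase of exon, which allows levels of different genes to be compared, the members spanned 0.915 to 1916 CPM on average over the 12 libraries. The highest was Perp, a tetraspan desmosomal protein of stratified epithelia, with 1713 ± 38.1 and 2132 ± 36.1 CPM per kb in RORγt-deficient A5-positive and A5-negative cells and 1804 ± 283 and 2014 ± 217 CPM per kb in those of wild-type mice (SD, n = 3 each). Jup (plakoglobin, the armadillo protein of the desmosomal plaque) averaged 623 CPM per kb over the 12 libraries, Cdh1 (E-cadherin) 582, Dsc3 (desmocollin of the basal layers) 374, Pkp3 342 and Epcam 315. Cldn1, the claudin without which mice lose the epidermal water barrier, led the tight junction genes with 309 CPM per kb, ahead of F11r (junctional adhesion molecule A) with 177 and Cldn4 with 124. Among the connexins Gja1 averaged 83.2 and Gjb2 81.8 CPM per kb. The lowest were Pkp2, the plakophilin of simple epithelia and heart, with 0.915, Cldn8 with 1.65 and Cldn7 with 3.32 CPM per kb. The level of Ctnnd1, a catenin that stabilises cadherins, is uncertain: 61.24% of its exon bases are shared with the read-through gene Gm28635 on the same strand, which had 0 counts, and whether reads in shared exons were counted is not stated.

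**Figure D1:**
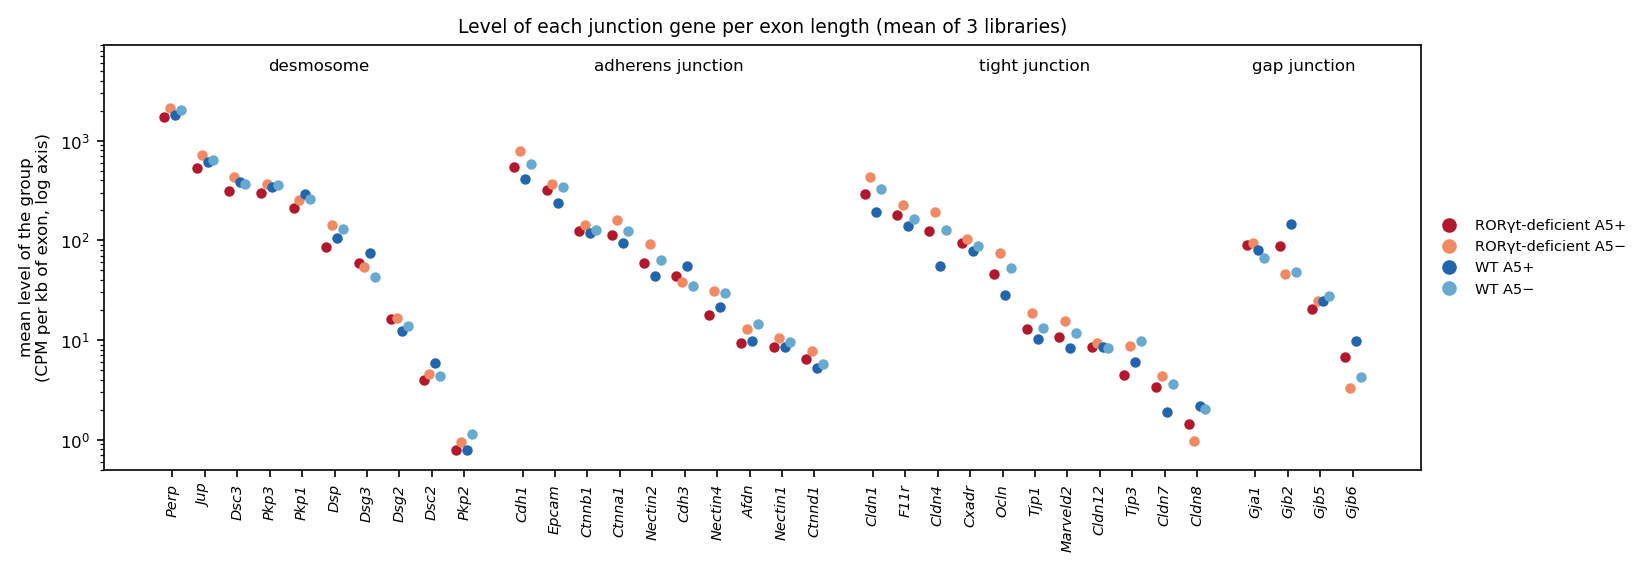
Mean level of each of the 35 junction genes per kilobase of exon (CPM per kb, log axis) in the 4 groups, with the genes ordered within their junction class. The desmosome genes Perp and Jup and the adherens gene Cdh1 are the most abundant, and Pkp2, Cldn8 and Cldn7 the least.

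A5-positive cells had less RNA of many junction genes than A5-negative cells, chiefly of tight and adherens junctions, and more of a few: the connexins Gjb2 and Gjb6 and the P-cadherin gene Cdh3. Over both genotypes, 11 of the 35 genes were called in the model without the block, 3 higher (Cdh3, Gjb2, Gjb6) and 8 lower (Dsp, Nectin2, Nectin4, Afdn, Cldn1, Cldn7, Ocln, Tjp3) in A5-positive cells. Of all genes tested 18.2% were called, 11.9% higher and 6.35% lower. With the block 22 were called, 4 higher (Dsg3 added) and 18 lower, against 33.9% of all genes, 18.5% higher and 15.5% lower. By class, with the block, 8 of 11 tight junction genes fell and none rose, 6 of 10 adherens junction genes fell and 1 rose, 4 of 10 desmosome genes fell and 1 rose, and 2 of 4 gap junction genes rose. The median log2 fold change (A5-positive over A5-negative, no block) was -0.52 for tight junctions, -0.39 for adherens junctions, -0.19 for desmosomes and 0.60 for gap junctions, beside 0.01 for all genes tested. In these bulk libraries, fewer cells that make a gene and less of its RNA per cell cannot be told apart.

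The summed levels of the classes differed between the fractions to unlike degrees. A sum in CPM mostly follows the most abundant genes of its class. These were Cldn1 for tight, Cdh1 for adherens and Gja1 for gap junctions, and Perp and Jup for desmosomes. Tight junction genes summed to 2482, 4079.9 and 3028 CPM in A5-positive against 4062, 4984 and 4123 CPM in A5-negative cells of RORγt-deficient mice. Wild-type cells had 1636, 2493 and 2679.8 CPM when A5-positive against 2765, 3652 and 3613 CPM when A5-negative. The sum was lower in A5-positive cells in 6 of 6 pairs, and the groups did not overlap in wild-type mice but did in RORγt-deficient mice. The A5-positive mean was 0.728 times the A5-negative mean in RORγt-deficient mice and 0.679 times in wild-type mice. Adherens junction genes summed to 4144, 6549 and 5059.6 CPM in A5-positive against 6389, 8288 and 6267 CPM in A5-negative cells of RORγt-deficient mice. Wild-type cells had 3545, 4854 and 4478 CPM when A5-positive against 4534, 6492 and 5842 CPM when A5-negative. This sum too was lower in 6 of 6 pairs, with overlapping groups in both genotypes. For desmosomes the sums were 11155, 13122 and 11612 CPM in A5-positive against 15064, 15762 and 15996 CPM in A5-negative cells of RORγt-deficient mice. Wild-type cells had 13711, 13957 and 14138 CPM when A5-positive against 12196, 15230.3 and 15592 CPM when A5-negative. They were lower in A5-positive cells in all 3 RORγt-deficient pairs, without overlap, but in 2 of 3 wild-type pairs. Gap junction genes summed to 1048, 1506 and 1023 CPM in A5-positive against 1191, 1278 and 931 CPM in A5-negative cells of RORγt-deficient mice. Wild-type cells had 1410.3, 1348 and 979.7 CPM when A5-positive against 709, 1042 and 833 CPM when A5-negative. They were higher in A5-positive cells in 5 of 6 pairs. Of 13 tested markers of differentiating keratinocytes, none rose and 5 fell in A5-positive cells with the block (1 without it), with a median log2 fold change of 0.0045 without it. Their summed level was lower in A5-positive cells in 6 of 6 pairs, as the tight and adherens junction sums were. It was 6221, 7615 and 7298 CPM in A5-positive against 9603, 9547 and 14009 CPM in A5-negative cells of RORγt-deficient mice, and 7350, 7899.7 and 13841 CPM in A5-positive against 9206, 12109 and 15336 CPM in A5-negative cells of wild-type mice. Hair follicle markers also summed lower in A5-positive cells in 6 of 6 pairs. They were at 3805, 3696 and 6859 CPM in A5-positive against 5824, 7457 and 9843 CPM in A5-negative cells of RORγt-deficient mice, and at 3035, 5006 and 8176 CPM in A5-positive against 7773, 8377 and 11352 CPM in A5-negative cells of wild-type mice. Of 7 tested follicle markers 2 rose and 1 fell with the block (1 and 1 without it). Summed markers of basal keratinocytes were higher in A5-positive cells in 6 of 6 pairs, and those of wound-front keratinocytes, with the sorted Itga5 among them, in 5 of 6. The part of these markers in the results was not tested.

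**Figure D2:**
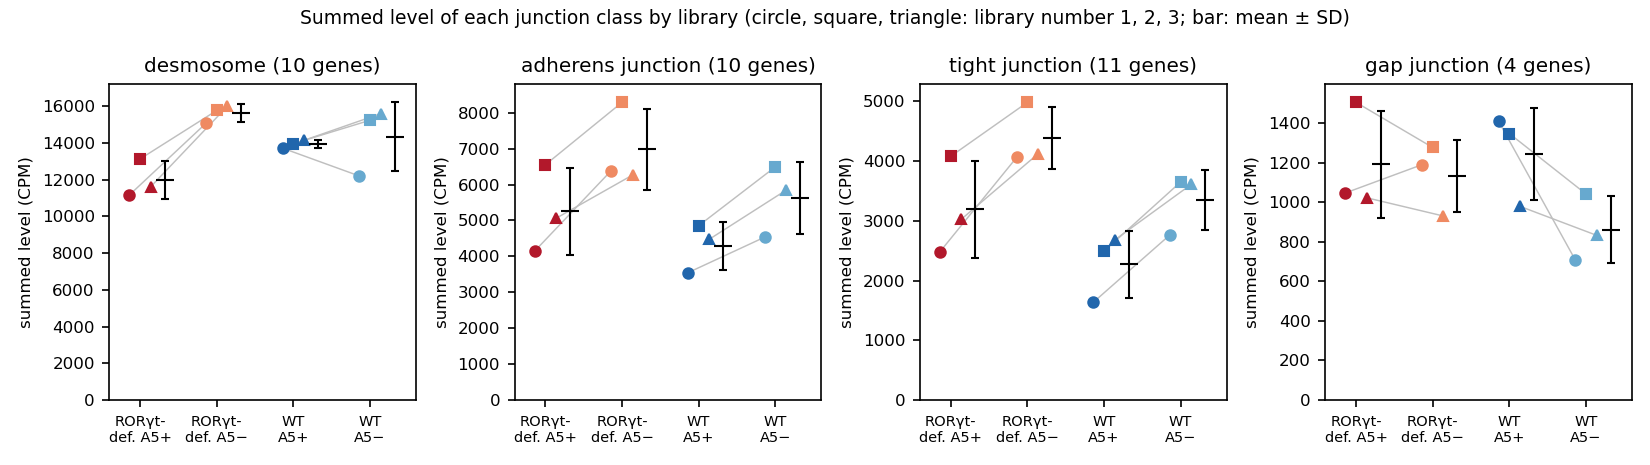
Summed level (CPM) of the genes of each junction class in each library, with lines joining libraries of equal number within a genotype and bars for the mean ± SD of 3 libraries. All 6 lines slope up toward A5-negative cells for tight and adherens junctions, 5 of 6 do for desmosomes and 1 of 6 for gap junctions.

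Of the tight junction genes, Cldn1, Cldn7, Ocln and Tjp3 fell in both models, and Cldn4, Marveld2, F11r and Tjp1 with the block only. Cldn1 had 1110.5, 1735 and 1343 CPM in A5-positive against 1934, 2342 and 1967 CPM in A5-negative cells of RORγt-deficient mice. Wild-type cells had 588, 949 and 1242 CPM when A5-positive against 1383, 1559 and 1822 CPM when A5-negative. Its groups did not overlap in either genotype, and over both genotypes it fell (-0.68 ± 0.18, adjusted p = 0.0225). Ocln, the gene of occludin, had 142, 288 and 154 CPM in A5-positive against 284, 413 and 251 CPM in A5-negative cells of RORγt-deficient mice. Wild-type cells had 69.8, 154 and 136 CPM when A5-positive against 179.5, 267 and 221 CPM when A5-negative. It fell (-0.80 ± 0.23, adjusted p = 0.0369), with no overlap between the fractions in wild-type mice. Cldn4, a barrier-forming claudin of the upper layers, had 126, 403 and 141 CPM in A5-positive against 315, 459 and 265 CPM in A5-negative cells of RORγt-deficient mice. Wild-type cells had 37.2, 136 and 130.3 CPM when A5-positive against 150.4, 378 and 164 CPM when A5-negative. Library 2 was the highest of each of the 4 groups. The gene was lower in 6 of 6 pairs; it was not called without the block (-0.91 ± 0.39, adjusted p = 0.120) and fell with it (-0.9999 ± 0.23, adjusted p = 0.00761). Cldn7, a claudin that binds Epcam, was scarce, with 5.82, 8.71 and 5.33 CPM in A5-positive against 7.90, 9.995 and 7.74 CPM in A5-negative cells of RORγt-deficient mice. Wild-type cells had 3.48, 4.86 and 2.62 CPM when A5-positive against 6.79, 9.18 and 5.23 CPM when A5-negative. It fell (-0.66 ± 0.20, adjusted p = 0.0446), and its groups overlapped only in RORγt-deficient mice.

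The remaining tight junction members were tricellulin, the adhesion receptors and the scaffolds. Tjp3, a zonula occludens scaffold, had 14.8, 15.5 and 19.8 CPM in A5-positive against 28.3, 27.8 and 40.2 CPM in A5-negative cells of RORγt-deficient mice. Wild-type cells had 12.6, 18.1 and 36.4 CPM when A5-positive against 33.1, 30.7 and 44.1 CPM when A5-negative. It fell (-0.82 ± 0.23, adjusted p = 0.0312) and did not overlap in RORγt-deficient mice, while wild-type A5-positive library 3 reached the A5-negative level; its exons overlap Apba3 on the opposite strand by 40 bases. Tjp1, the founding scaffold of the family, had 63.3, 146 and 96.4 CPM in A5-positive against 133, 160.3 and 145 CPM in A5-negative cells of RORγt-deficient mice. Wild-type cells had 61.02, 104 and 74.5 CPM when A5-positive against 66.8, 141 and 99.8 CPM when A5-negative. It was lower in 6 of 6 pairs, missed the threshold without the block (-0.44 ± 0.22, adjusted p = 0.179) and fell with it (-0.47 ± 0.11, adjusted p = 0.00636). Marveld2, the gene of tricellulin, which seals the corners where several cells meet, had 26.5, 45.2 and 36.8 CPM in A5-positive against 50.4, 64.5 and 42.4 CPM in A5-negative cells of RORγt-deficient mice. Wild-type cells had 18.9, 33.2 and 32.1 CPM when A5-positive against 32.5, 45.4 and 41.7 CPM when A5-negative. This gene and F11r likewise were lower in 6 of 6 pairs and fell only with the block. Marveld2 had -0.52 ± 0.18 without the block (adjusted p = 0.0621) and -0.55 ± 0.11 with it (adjusted p = 0.00421). F11r had 409.5, 614 and 421 CPM in A5-positive against 529, 763 and 522 CPM in A5-negative cells of RORγt-deficient mice. Wild-type cells had 311, 394 and 397 CPM when A5-positive against 357, 506 and 440.2 CPM when A5-negative. Its fold changes were -0.29 ± 0.15 without the block (adjusted p = 0.192) and -0.28 ± 0.082 with it (adjusted p = 0.0227). Cldn8, Cldn12 and the adenovirus receptor gene Cxadr were not called, with log2 fold changes of 0.33 ± 0.37, -0.070 ± 0.14 and -0.13 ± 0.13.

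In the adherens junction class Afdn, Nectin2 and Nectin4 fell in both models and Cdh3 rose in both, while Cdh1, Ctnna1 and Epcam fell with the block only. Afdn, the gene of afadin, which anchors nectins to actin, had 93.96, 87.5 and 102 CPM in A5-positive against 137, 119.5 and 144 CPM in A5-negative cells of RORγt-deficient mice. Wild-type cells had 95.1, 94.1 and 113 CPM when A5-positive against 137, 141 and 163 CPM when A5-negative. The fractions did not overlap in either genotype, and Afdn had the smallest p of the 35 genes in the model without the block (-0.52 ± 0.089, adjusted p = 0.00250). It was also called within wild-type mice (-0.55 ± 0.13, adjusted p = 0.0360) and within RORγt-deficient mice (-0.50 ± 0.13, adjusted p = 0.0402). Nectin4 had 54.8, 72.04 and 74.5 CPM in A5-positive against 88.9, 121 and 142 CPM in A5-negative cells of RORγt-deficient mice. Wild-type cells had 61.7, 78.1 and 99.3 CPM when A5-positive against 84.7, 125 and 123 CPM when A5-negative. It fell (-0.64 ± 0.16, adjusted p = 0.0191). For Nectin2 the libraries had 182, 275 and 169.7 CPM in A5-positive against 275, 403 and 289 CPM in A5-negative cells of RORγt-deficient mice. Wild-type cells had 114, 170.1 and 179.5 CPM when A5-positive against 178, 240.2 and 244 CPM when A5-negative. It fell as well (-0.57 ± 0.17, adjusted p = 0.0363). Both were lower in 6 of 6 pairs and did not overlap in RORγt-deficient mice, where the nearest Nectin2 libraries of the fractions were almost equal. Nectin1 ranged over 44.04 to 78.7 CPM and was not called (-0.22 ± 0.14, adjusted p = 0.282).

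With the block, the classical cadherins went in opposite directions. Cdh1 had 1781, 3435 and 2298 CPM in A5-positive against 3370.03, 4294 and 3066 CPM in A5-negative cells of RORγt-deficient mice. Wild-type cells had 1466, 2223 and 1960.4 CPM when A5-positive against 2017, 3289 and 2744 CPM when A5-negative. It was lower in 6 of 6 pairs, was not called without the block (-0.51 ± 0.19, adjusted p = 0.0728) and fell with it (-0.53 ± 0.095, adjusted p = 0.00206). Cdh3, the P-cadherin gene of basal and follicle keratinocytes, had 211, 174 and 188 CPM in A5-positive against 192, 158 and 155 CPM in A5-negative cells of RORγt-deficient mice. Wild-type cells had 305, 254 and 175 CPM when A5-positive against 155, 159 and 142 CPM when A5-negative. It rose (0.44 ± 0.13, adjusted p = 0.0359), higher in 6 of 6 pairs and without overlap in wild-type mice. The ratio of Cdh3 to Cdh1 per kilobase was 0.123, 0.0528 and 0.0853 in A5-positive and 0.0594, 0.0383 and 0.0527 in A5-negative cells of RORγt-deficient mice. In wild-type mice it was 0.217, 0.119 and 0.0932 in A5-positive and 0.0800, 0.0504 and 0.0539 in A5-negative cells, so that E-cadherin RNA stayed the more abundant in all 12 libraries.

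Of the catenins, Ctnna1, whose alpha-catenin links the cadherin complex to actin, had 566, 999 and 636 CPM in A5-positive against 861, 1332 and 855 CPM in A5-negative cells of RORγt-deficient mice. Wild-type cells had 505, 767 and 555 CPM when A5-positive against 635, 974 and 793 CPM when A5-negative. It fell with the block (-0.44 ± 0.071, adjusted p = 0.00115) but not without it (-0.43 ± 0.19, adjusted p = 0.121). Ctnnb1 (beta-catenin, 572 to 749 CPM) and Ctnnd1 (31.2 to 61.9 CPM) were not called, with log2 fold changes of -0.15 ± 0.085 and -0.19 ± 0.14. Epcam, a surface marker of the sort itself, had 583, 741 and 790.4 CPM in A5-positive against 619, 999.98 and 774 CPM in A5-negative cells of RORγt-deficient mice. Wild-type cells had 344, 549.8 and 667 CPM when A5-positive against 645, 766 and 828 CPM when A5-negative. It fell with the block (-0.36 ± 0.099, adjusted p = 0.0165) and was not called without it (-0.35 ± 0.17, adjusted p = 0.167).

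Of the desmosome genes, only Dsp, the gene of the plaque protein desmoplakin, was called in both models. Dsp, which ties the plaque to keratin, had 735, 944 and 824 CPM in A5-positive against 1369, 1222 and 1557 CPM in A5-negative cells of RORγt-deficient mice. Wild-type cells had 1000.3, 1141 and 921 CPM when A5-positive against 986, 1345 and 1399 CPM when A5-negative. It fell over both genotypes (-0.51 ± 0.12, adjusted p = 0.0142) and within RORγt-deficient mice (-0.73 ± 0.17, adjusted p = 0.0259), where the fractions did not overlap. In wild-type mice it was not called (-0.28 ± 0.17, adjusted p = 0.355), and the fractions overlapped. Jup had 3145, 3829.5 and 3195 CPM in A5-positive against 4095, 5014 and 4719.6 CPM in A5-negative cells of RORγt-deficient mice. Wild-type cells had 3679.98, 3973 and 4188 CPM when A5-positive against 3456, 4351 and 4503 CPM when A5-negative. It fell with the block (-0.25 ± 0.074, adjusted p = 0.0257) and was not called without it (-0.25 ± 0.11, adjusted p = 0.120). The RORγt-deficient fractions did not overlap, while the wild-type fractions did.

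Pkp3, a plakophilin of all epidermal layers, had 1019, 1166 and 1079 CPM in A5-positive against 1194, 1449 and 1310.5 CPM in A5-negative cells of RORγt-deficient mice. Wild-type cells had 1063, 1379.7 and 1258 CPM when A5-positive against 1131, 1465 and 1314 CPM when A5-negative. Perp had 3371, 3402 and 3261 CPM in A5-positive against 4082, 4214 and 4191 CPM in A5-negative cells of RORγt-deficient mice. Wild-type cells had 3434, 3018 and 4114 CPM when A5-positive against 3577, 3817 and 4400.4 CPM when A5-negative. Both were lower in 6 of 6 pairs by small amounts and fell with the block only, Pkp3 with -0.18 ± 0.062 (adjusted p = 0.0479, 0.242 without the block) and Perp with -0.24 ± 0.082 (adjusted p = 0.0440, 0.118 without it). Dsg3, the basal desmoglein that is the autoantigen of pemphigus vulgaris, had 325, 499 and 409 CPM in A5-positive against 408, 389.7 and 325 CPM in A5-negative cells of RORγt-deficient mice. Wild-type cells had 593, 606 and 346 CPM when A5-positive against 229, 406 and 267 CPM when A5-negative. It rose with the block (0.45 ± 0.14, adjusted p = 0.0268) but not without it (0.46 ± 0.18, adjusted p = 0.0984), and RORγt-deficient pair 1 went the other way. Dsg2, Dsc2, Dsc3, Pkp1 and Pkp2 were not called in either model, with log2 fold changes of -0.39 to 0.11 without the block. Dsc3 and Pkp1 were nonetheless lower without overlap in RORγt-deficient mice: Dsc3 had 1485, 1978 and 1559 CPM in A5-positive against 2546, 2147 and 2271 CPM in A5-negative cells of RORγt-deficient mice. Wild-type cells had 2314, 2170.4 and 1779.9 CPM when A5-positive against 1566, 2288 and 2144 CPM when A5-negative.

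The connexins that rose were Gjb2 and Gjb6, which are known for their induction in hyperproliferative epidermis. Gjb2 had 202, 139.5 and 296 CPM in A5-positive against 60.3, 91.7 and 176 CPM in A5-negative cells of RORγt-deficient mice. Wild-type cells had 509, 271 and 267 CPM when A5-positive against 86.1, 126 and 137 CPM when A5-negative. It rose (1.27 ± 0.28, adjusted p = 0.0110), higher in 6 of 6 pairs and without overlap in wild-type mice, where library 1 of the A5-positive fraction was the highest of all 12. Gjb6 had 13.3, 14.2 and 26.6 CPM in A5-positive against 5.85, 6.42 and 14.3 CPM in A5-negative cells of RORγt-deficient mice. Wild-type cells had 38.1, 17.7 and 22.4 CPM when A5-positive against 11.6, 11.02 and 11.9 CPM when A5-negative. It rose as well (1.11 ± 0.27, adjusted p = 0.0176), in 6 of 6 pairs and without overlap in wild-type mice. Gja1, the most abundant connexin of basal keratinocytes and also made by fibroblasts, had 797, 1319 and 663 CPM in A5-positive against 1086, 1143 and 690.5 CPM in A5-negative cells of RORγt-deficient mice. Wild-type cells had 826, 1024 and 635 CPM when A5-positive against 568, 864 and 627 CPM when A5-negative. It was not called (0.10 ± 0.20, adjusted p = 0.760). Gjb5 ranged over 33.9 to 57.5 CPM and was lower in 6 of 6 pairs without being called (-0.20 ± 0.13, adjusted p = 0.309, and 0.0752 with the block).

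Gjb2 and Gjb6 are neighbours on mouse chromosome 14, both on the minus strand, and RefSeq (GRCm38.p6) gives the start of Gjb2 near chr14:57104703 and that of Gjb6 near chr14:57133612. Their promoters are shown because the pair rose together at the front, and those of Cldn4 and Ocln because these fell there, Cldn4 with the block only. Each is the 250 bases before a transcript start, read 5′ to 3′ on the gene's strand, all 4 of them minus strands. Capitals mark matches on either strand to CAGGTG (an E-box), AACNGGTT (a grainyhead site), TGANTCA (an AP-1 site) and ACGTG (the core of a hypoxia response element). The windows are chr14:57104703-57104952, chr14:57133612-57133861, chr5:134946935-134947184 and chr13:100552499-100552748.
Gjb2: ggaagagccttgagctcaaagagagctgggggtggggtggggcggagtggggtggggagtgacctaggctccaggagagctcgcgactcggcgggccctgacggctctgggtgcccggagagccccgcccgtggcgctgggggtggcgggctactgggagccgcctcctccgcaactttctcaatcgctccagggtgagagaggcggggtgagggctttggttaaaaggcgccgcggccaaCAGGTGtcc
Gjb6: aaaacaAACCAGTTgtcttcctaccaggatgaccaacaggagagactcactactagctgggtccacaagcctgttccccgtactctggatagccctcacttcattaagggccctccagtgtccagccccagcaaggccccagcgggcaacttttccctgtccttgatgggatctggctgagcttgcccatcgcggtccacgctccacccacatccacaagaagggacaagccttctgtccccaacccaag
Cldn4: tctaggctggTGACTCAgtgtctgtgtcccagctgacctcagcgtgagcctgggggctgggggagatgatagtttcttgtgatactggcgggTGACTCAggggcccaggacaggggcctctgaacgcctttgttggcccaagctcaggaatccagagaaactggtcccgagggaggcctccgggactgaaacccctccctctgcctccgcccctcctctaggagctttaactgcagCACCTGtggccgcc
Ocln: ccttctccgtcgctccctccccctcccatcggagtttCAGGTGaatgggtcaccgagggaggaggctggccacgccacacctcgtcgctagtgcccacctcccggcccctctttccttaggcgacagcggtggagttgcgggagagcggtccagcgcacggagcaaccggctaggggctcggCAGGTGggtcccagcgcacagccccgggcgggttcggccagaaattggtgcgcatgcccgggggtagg
The Gjb2 window held 1 E-box and that of Gjb6 1 grainyhead site, so that the 2 neighbours shared none of the 4 motifs in these bases. The Cldn4 window held 2 AP-1 sites and 1 E-box, and the Ocln window shown 2 E-boxes. RefSeq gives Ocln a second window farther upstream, chr13:100552719-100552968, which is not shown and held none of the 4 motifs. The shown windows do not stand for all genes that fell. Among the others that fell in both models, the windows of Afdn, Cldn1, Nectin4 and Dsp held none of the 4 motifs. Nectin2, Cldn7 and Tjp3 had an E-box in a window. RefSeq promoters matched 21 of the 35 genes, in 29 windows. An E-box was in 31.03% of the 29 windows against 17.22% of all 32851, an AP-1 site in 10.34% against 6.749%, a grainyhead site in 3.448% against 1.79%, and a hypoxia response core in 3.448% against 16.57%. A match describes letters only and is not a site shown to be bound.

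**Figure D3:**
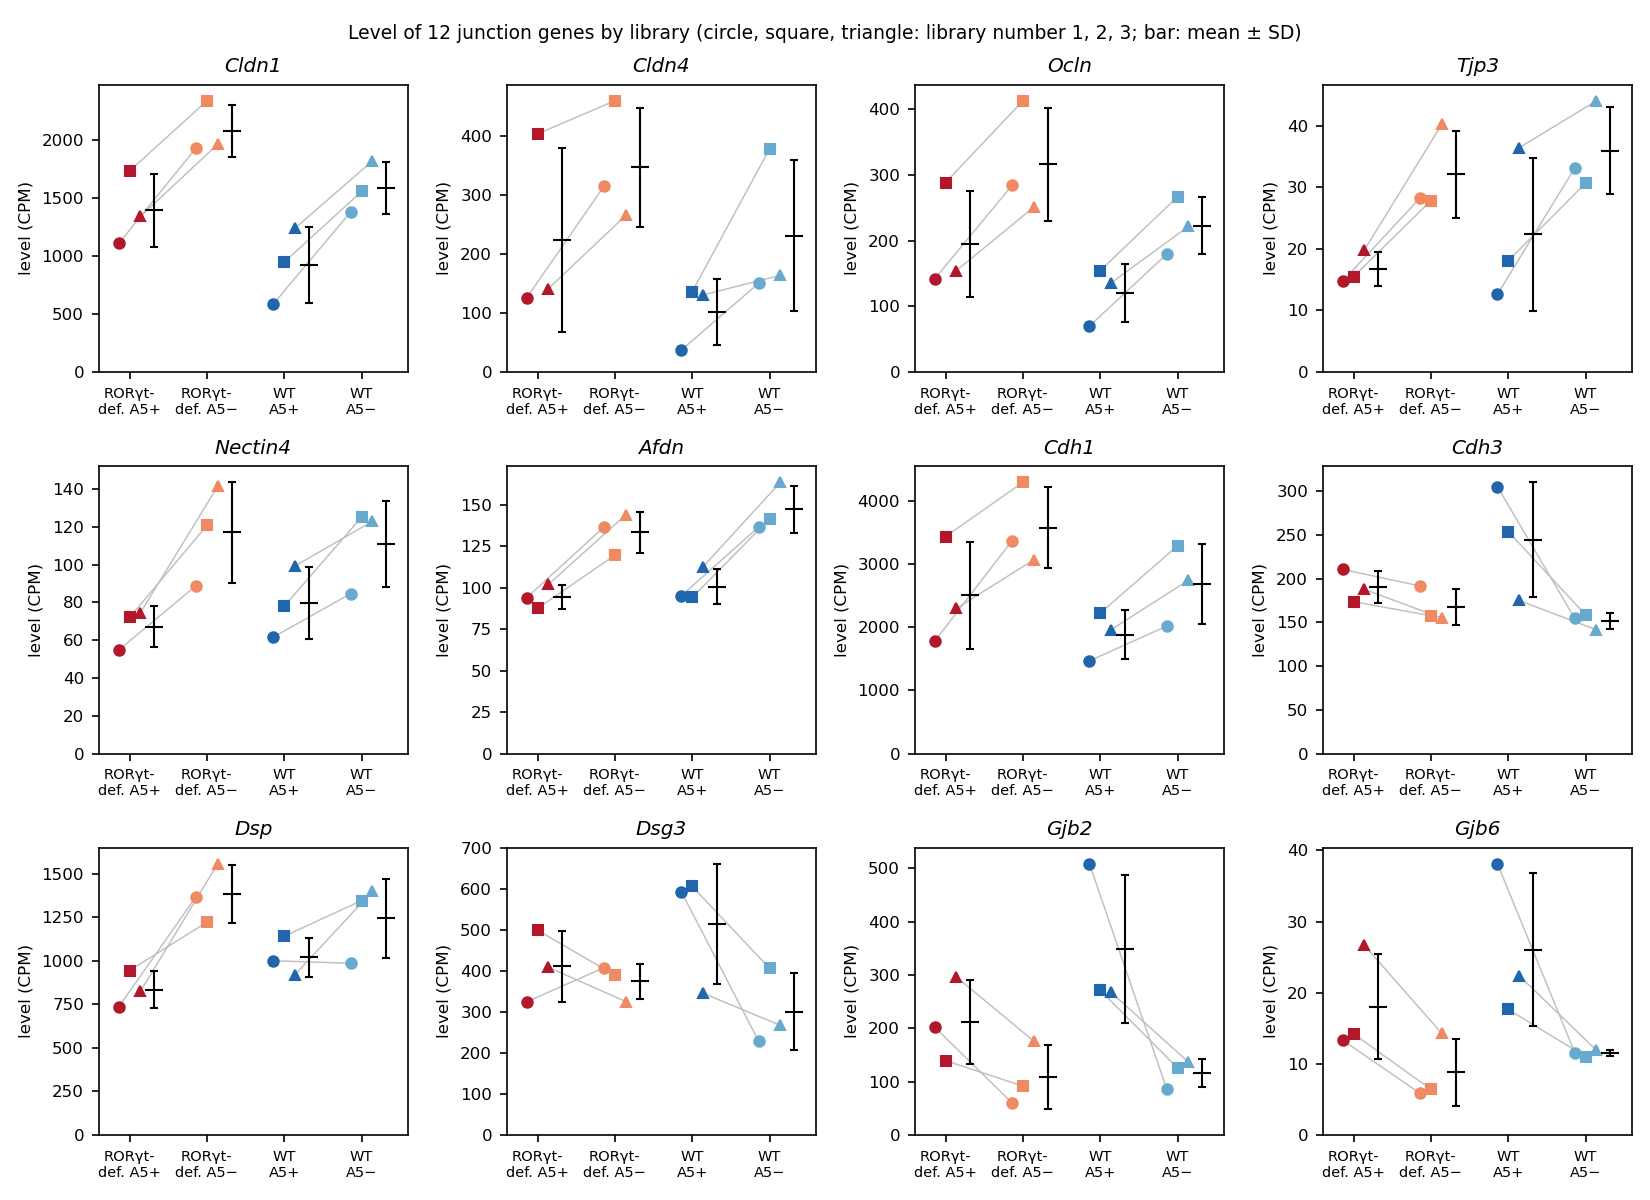
Level (CPM) of 12 junction genes in each library, with lines joining A5-positive and A5-negative libraries of equal number and bars for the mean ± SD of 3 libraries. Cldn1, Cldn4, Ocln, Tjp3, Nectin4, Afdn and Cdh1 slope up toward A5-negative cells in 6 of 6 pairs, and Cdh3, Gjb2 and Gjb6 slope down in 6 of 6.

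Within each genotype, the difference between the fractions was called for few genes without the block. In RORγt-deficient mice Dsp and Afdn were called without it, beside 5.52% of all genes. With it 13 were called, 1 higher and 12 lower, beside 17.6% of all genes (10.1% higher and 7.54% lower). In wild-type mice Afdn alone was called without it, beside 3.45% of all genes. With it 16 were called, 4 higher and 12 lower, beside 14.4% (8.76% higher and 5.59% lower). The fractions did not overlap for 11 genes in RORγt-deficient mice, all lower in A5-positive cells, and for 8 in wild-type mice, 3 higher and 5 lower; 14.3% of all genes were higher and 11.3% lower without overlap in RORγt-deficient mice, and 15.9% and 9.12% in wild-type mice. Of the 11 in RORγt-deficient mice 6 were desmosome genes (Dsc3, Jup, Pkp1, Pkp3, Dsp, Perp), while of the 8 in wild-type mice 4 were tight junction genes (Cldn1, Cldn4, Cldn7, Ocln) and none was a desmosome gene. Over the 6 pairs, 3 genes were higher in every pair and 17 lower in every pair, against 18.4% and 15.5% of all genes. The fold change lay above 0 in both genotypes for 5 of the 35 genes, below 0 in both for 25 and had opposite signs for 5; it had the same sign in both for 76.1% of all genes tested.

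These counts rested on the libraries to different degrees. Over both genotypes and with the block, 16 of the 22 genes were called whichever library was left out, and the count ran between 17 and 23 while that over all genes ran between 4266 and 5665. Jup lost its call when RORγt-deficient A5-positive library 3, wild-type A5-positive library 2 or wild-type A5-negative library 3 was left out (adjusted p up to 0.0876). Pkp3 lost its call when RORγt-deficient A5-positive library 3, wild-type A5-positive library 1 or 2 or wild-type A5-negative library 1, 2 or 3 was left out (adjusted p up to 0.11). Perp lost its call when RORγt-deficient A5-positive library 3, RORγt-deficient A5-negative library 2, wild-type A5-positive library 1 or 2 or wild-type A5-negative library 2 or 3 was left out (adjusted p up to 0.14). Dsg3 lost its call when RORγt-deficient A5-positive library 2 or 3, RORγt-deficient A5-negative library 2 or 3, wild-type A5-positive library 1 or wild-type A5-negative library 1 was left out (adjusted p up to 0.0868). Epcam lost its call when wild-type A5-positive library 1 or 2 was left out (adjusted p up to 0.0533). F11r lost its call when RORγt-deficient A5-positive library 3, wild-type A5-positive library 1 or 2 or wild-type A5-negative library 3 was left out (adjusted p up to 0.0849). Without the block, Dsp, Afdn, Gjb2 and Gjb6 were called in every omission and the count ran between 5 and 18; the other 7 of the 11 lost their call there in some omission but in none with the block. Leaving out wild-type A5-negative library 1, the library with the most immune cell markers, left 11 genes called without the block and 21 with it. Within a genotype the counts moved more, as did those over all genes with the block (1073 to 2960 in RORγt-deficient and 579 to 2357 in wild-type mice). In wild-type mice with the block they were 5, 3 and 16 without A5-positive library 1, 2 and 3, and 4, 10 and 4 without A5-negative library 1, 2 and 3; Afdn and Cldn7 were called each time. In RORγt-deficient mice they were 7, 13 and 3 without A5-positive library 1, 2 and 3, and 6, 11 and 12 without A5-negative library 1, 2 and 3, with Dsp, Nectin4 and Afdn called each time.

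**Figure D4:**
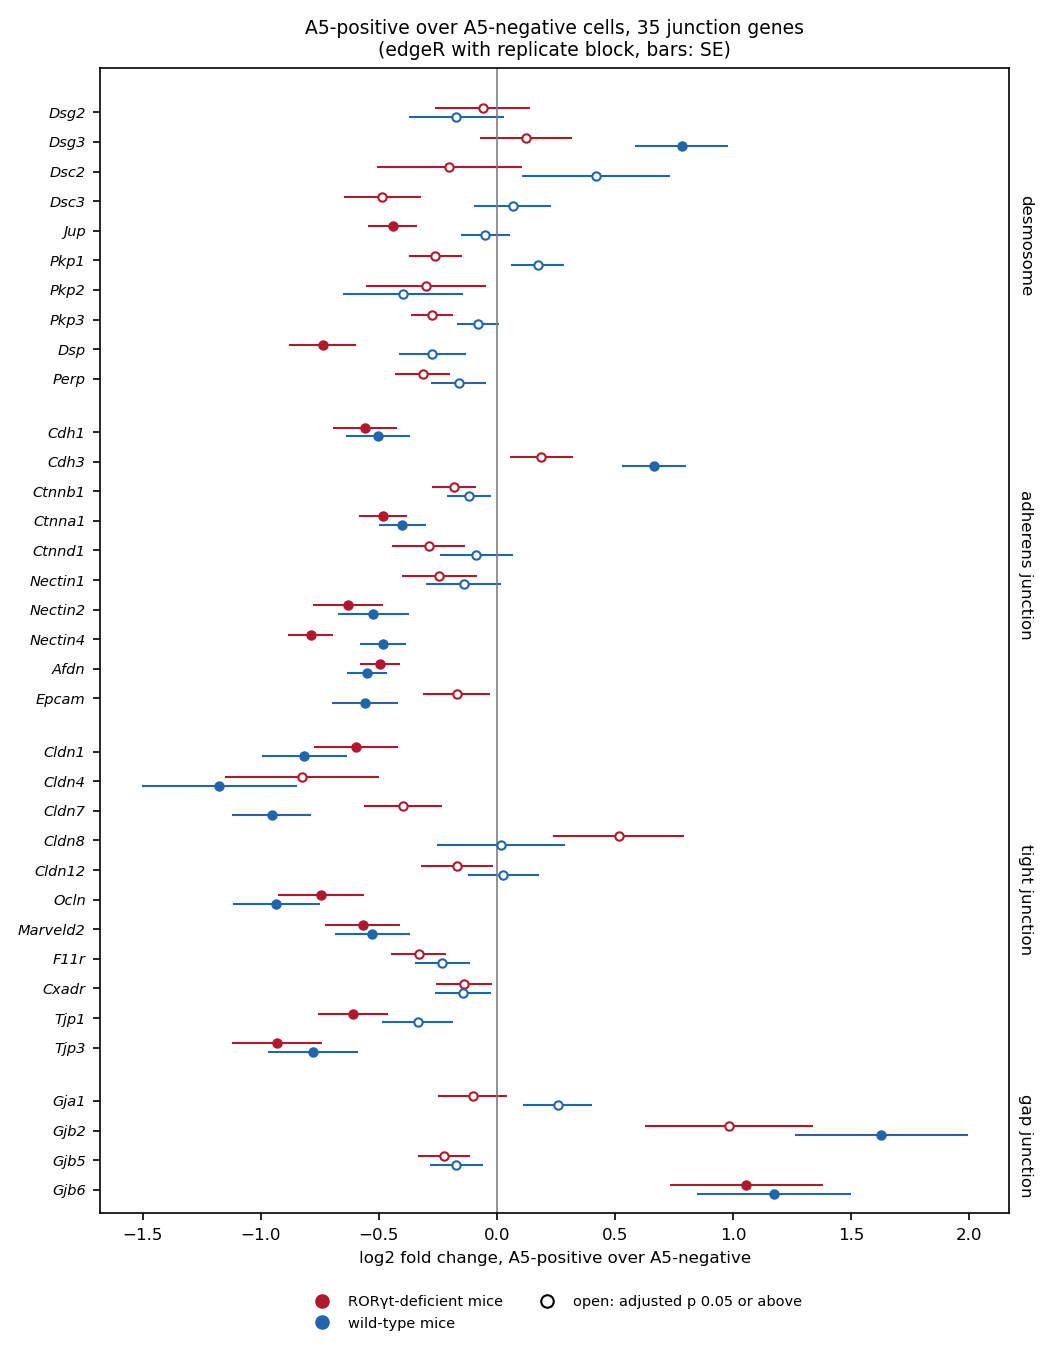
Log2 fold change of each junction gene, A5-positive over A5-negative cells, within RORγt-deficient and within wild-type mice, from the model with the block. Bars are standard errors, and open points have an adjusted p of 0.05 or above. Most tight and adherens junction genes lie below 0 and Gjb2, Gjb6 and Cdh3 above it.

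The summed levels of tight and of adherens junction genes were each higher in RORγt-deficient than in wild-type cells in 6 of 6 pairs. Of all single genes 9.89% were. Between genotypes the tight junction sums overlapped in A5-positive cells (2482 to 4079.9 against 1636 to 2679.8 CPM) but not in A5-negative cells. Adherens junction sums overlapped in both fractions. Single junction genes passed the threshold only when the library number was in the model. In edgeR's test without the block none of the 35 genes was called over both fractions, beside 0.054% of all genes, and none by DESeq2 or limma's voom. With the block 11 were called, beside 12.1% of all genes: 10 higher (7 of tight and 3 of adherens junctions, beside 6.97% of all genes) and 1 lower, Cldn8 (beside 5.13%). None of the 11 calls held under every omission of a library, and the count ran between 0 and 12 while that over all genes ran between 390 and 2143. It was 8, 2 and 10 without RORγt-deficient A5-positive library 1, 2 and 3, and 5, 11 and 11 without RORγt-deficient A5-negative library 1, 2 and 3. It was 3, 2 and 12 without wild-type A5-positive library 1, 2 and 3, and 5, 0 and 5 when library 1, 2 or 3 of wild-type A5-negative cells was left out. Cldn7 lost its call only without wild-type A5-negative library 2, and F11r without it or wild-type A5-positive library 2. The median log2 fold change (RORγt-deficient over wild type, no block) was 0.43 for tight junctions, 0.19 for adherens junctions, -0.06 for desmosomes and -0.31 for gap junctions, beside 0.00 for all genes. The summed gap junction level nonetheless was higher in RORγt-deficient cells in 5 of 6 pairs, as was Gja1. Gjb2 and Gjb6 were lower in 4 of 6 and Gjb5 in 6 of 6. The mean of that sum was 1192 against 1246 CPM in A5-positive and 1133 against 861 CPM in A5-negative cells. The RORγt-deficient mean of the summed tight junction level was 1.41 times the wild-type mean in A5-positive cells and 1.31 times in A5-negative cells. Fibroblast markers summed to 10909 to 17871 CPM in RORγt-deficient and 6661 to 9837 CPM in wild-type A5-positive libraries, and of 13 markers of differentiating keratinocytes none rose and 2 fell in RORγt-deficient cells with the block (none without it). The summed levels of differentiating, of basal and of hair follicle markers were each lower in RORγt-deficient cells in 5 of 6 pairs. Summed markers of wound-front keratinocytes, with the sorted Itga5 among them, were lower in 6 of 6 pairs (log2 ratios of -0.56 to -0.059). The part of these markers in the results was not tested.

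Cldn7 had 5.82, 8.71 and 5.33 CPM in RORγt-deficient against 3.48, 4.86 and 2.62 CPM in wild-type A5-positive cells. A5-negative cells had 7.90, 9.995 and 7.74 CPM in RORγt-deficient against 6.79, 9.18 and 5.23 CPM in wild-type mice. It did not overlap between genotypes in A5-positive cells, and over both fractions it rose with the block (0.58 ± 0.12, adjusted p = 0.0148) but not without it (0.56 ± 0.20, adjusted p = 0.180). F11r had 409.5, 614 and 421 CPM in RORγt-deficient against 311, 394 and 397 CPM in wild-type A5-positive cells. A5-negative cells had 529, 763 and 522 CPM in RORγt-deficient against 357, 506 and 440.2 CPM in wild-type mice. It was higher without overlap in both fractions and rose with the block (0.42 ± 0.083, adjusted p = 0.0134; 0.168 without it). Ocln, with its values given above, rose with the block (0.59 ± 0.13, adjusted p = 0.0193; 0.197 without it), and so did Cldn1 (0.51 ± 0.13, adjusted p = 0.0291; 0.176 without it), which did not overlap in A5-negative cells. Cldn4 (0.89 ± 0.23, adjusted p = 0.0331; 0.243 without the block) had the largest rise of the 35. Tjp1 (0.45 ± 0.11, adjusted p = 0.0246) and Marveld2 (0.39 ± 0.11, adjusted p = 0.0472) rose with the block too and had adjusted p of 0.302 and 0.263 without it. Cldn8 went the other way, with 3.04, 1.89 and 5.31 CPM in RORγt-deficient against 6.84, 1.83 and 6.63 CPM in wild-type A5-positive cells. A5-negative cells had 3.01, 1.46 and 2.44 CPM in RORγt-deficient against 6.17, 2.49 and 5.62 CPM in wild-type mice. It fell with the block (-0.74 ± 0.19, adjusted p = 0.0340; 0.258 without it), at levels of a few CPM.

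Of the adherens junction genes Nectin2 had 182, 275 and 169.7 CPM in RORγt-deficient against 114, 170.1 and 179.5 CPM in wild-type A5-positive cells. A5-negative cells had 275, 403 and 289 CPM in RORγt-deficient against 178, 240.2 and 244 CPM in wild-type mice. It rose with the block (0.49 ± 0.11, adjusted p = 0.0194; 0.167 without it) and did not overlap in A5-negative cells. Cdh1 (0.41 ± 0.095, adjusted p = 0.0234) and Ctnna1 (0.29 ± 0.071, adjusted p = 0.0278) rose with the block and had adjusted p of 0.242 and 0.370 without it. Cdh1, Ctnna1, Ctnnb1 and Ctnnd1 were higher in 6 of 6 pairs. Counted over all members, 12 genes were higher in RORγt-deficient cells in 6 of 6 pairs, 8 of them of tight junctions, and 1 (Gjb5) was lower in 6 of 6, against 9.89% and 11% of all genes. These 6 pairs are not independent if both fractions of a number came from the same mice. The sign was the same in both fractions for 18 genes above 0 and 8 below 0, against 69.9% of all genes. All 11 tight junction genes had the same sign in both, 9 above 0 and 2 below 0 (Cldn8 and Tjp3). Tjp3 was lower in RORγt-deficient cells in 5 of 6 pairs and was not called in either model (-0.29 ± 0.23 without the block).

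The summed level of desmosome genes lay on opposite sides of wild type in the fractions, a difference that was not tested for the sum. It was 11155, 13122 and 11612 CPM in RORγt-deficient against 13711, 13957 and 14138 CPM in wild-type A5-positive cells, lower in 3 of 3 pairs. In A5-negative cells it was 15064, 15762 and 15996 CPM in RORγt-deficient against 12196, 15230.3 and 15592 CPM in wild-type mice, higher in 3 of 3 pairs. Without wild-type A5-negative library 1, the lowest of these 6 and the library with the most immune cell markers, the RORγt-deficient mean was 1.013 times the wild-type mean, against 1.09 times with it. Of the 10 genes, 7 had opposite signs in the fractions, 1 was above 0 in both and 2 below 0 in both. Pkp1, a plakophilin of the upper epidermal layers, had 934, 1121 and 1129.5 CPM in RORγt-deficient against 1499, 1497 and 1419 CPM in wild-type A5-positive cells. A5-negative cells had 1169, 1171 and 1475 CPM in RORγt-deficient against 1132, 1385 and 1428 CPM in wild-type mice. In A5-positive cells it was lower without overlap and fell with the block (-0.48 ± 0.11, adjusted p = 0.0442; 0.209 without it).

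Within A5-positive cells, none of the 35 genes was called without the block, beside 0.006% of all genes, and none by DESeq2 or voom. With the block 2 were called, Pkp1 lower and Cldn7 higher (0.86 ± 0.17, adjusted p = 0.0362), beside 4.02% of all genes (2.26% higher and 1.76% lower). The count was 8 without wild-type A5-positive library 3, where 705 of all genes were called, and 0 without any of the other 5 libraries, where 6 to 86 of all genes were. The genotypes did not overlap for 2 genes higher (Cldn7, F11r) and 1 lower (Pkp1), against 9.04% and 9.01% of all genes. Cdh3 had the smallest p of the adherens junction genes (-0.36 ± 0.18, adjusted p = 0.364) and Gjb2 of the gap junction genes (-0.72 ± 0.40, adjusted p = 0.403). Within A5-negative cells none was called in either model, beside 0.006% of all genes, and none by DESeq2 or voom. There 5 genes were higher without overlap (Ctnnb1, Ctnnd1, Nectin2, Cldn1, F11r) and none lower, against 7.33% and 8.26% of all genes. Gja1 had the smallest p of the gap junction genes (0.50 ± 0.29, adjusted p = 0.779) and Dsg3 of the desmosome genes (0.32 ± 0.26, adjusted p = 0.788).

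**Figure D5:**
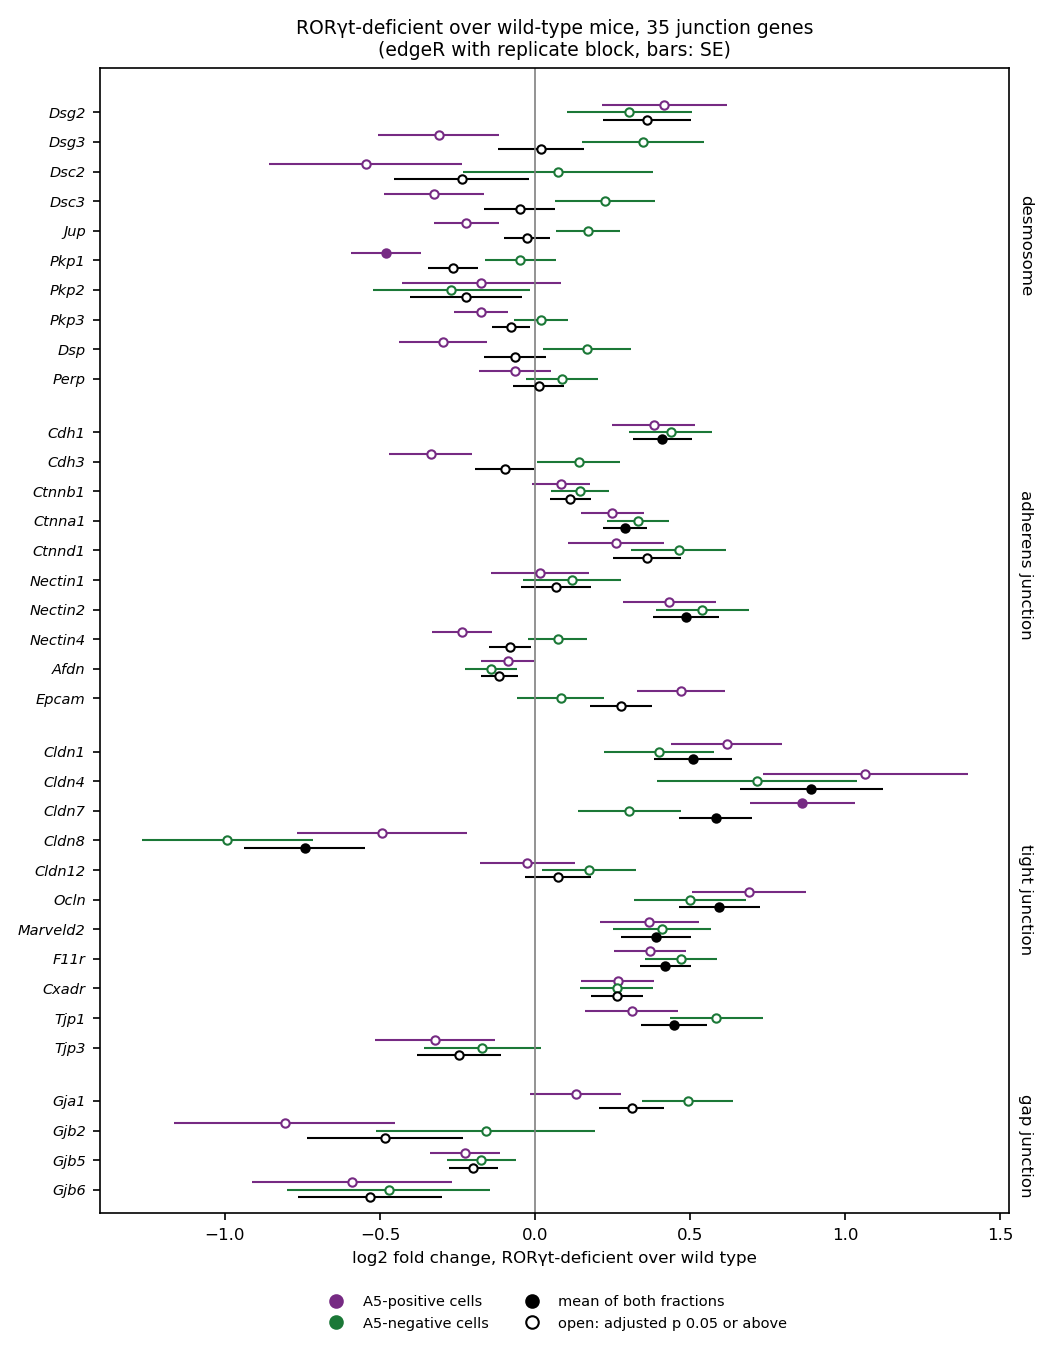
Log2 fold change of each junction gene, RORγt-deficient over wild-type mice, within A5-positive and A5-negative cells and over both, from the model with the block. Bars are standard errors, and open points have an adjusted p of 0.05 or above. Most tight junction genes lie above 0 in both fractions, and the desmosome genes lie on both sides of 0. In this model 2 genes were called in A5-positive cells (Pkp1 lower, Cldn7 higher), none in A5-negative cells and 11 over both fractions. None was called without the block.

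Whether the difference between the fractions itself differed between genotypes was tested as an interaction. None of the 35 genes was called, without the block or with it (smallest adjusted p = 0.914), beside 0% of all genes in both models. None was called by DESeq2 or voom. The genes with the smallest p of their class without the block were Dsc3 (-0.53 ± 0.25), Cdh3 (-0.51 ± 0.25), Cldn7 (0.58 ± 0.41) and Gjb2 (-0.63 ± 0.56), each with an adjusted p of 0.9999. The median interaction was -0.41 for desmosomes, -0.093 for adherens junctions, 0.027 for tight junctions and -0.24 for gap junctions.

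Of 66 other genes of the same junctions, 53 passed the filter. Between the fractions over both genotypes, 18.5% of all genes rose and 15.5% fell with the block, and 11.9% and 6.35% without it. With the block, all 7 tested desmosome genes fell in A5-positive cells (4 without the block). Ppl and Evpl, the periplakin and envoplakin genes of the cornified envelope, had -0.69 ± 0.14, adjusted p = 0.00576 and -0.59 ± 0.16, adjusted p = 0.0249 without the block, and Dsc1, the desmocollin of differentiating layers, -0.55 ± 0.082, adjusted p = 7.61e-04 with it. Of 12 adherens junction genes 5 fell and 1 rose with the block (1 and 0 without it), led by Camsap3, which anchors microtubules at the zonula adherens (-0.76 ± 0.13, adjusted p = 0.00293 without the block). Of 25 tight junction genes 11 fell and 5 rose with the block (2 and 3 without it); the share that rose with the block was near that of all genes. Pard3 and Pard6b, of the polarity complex, fell (-0.47 ± 0.087, adjusted p = 0.00412, and -0.75 ± 0.19, adjusted p = 0.0202, without the block), while Jam3 and Jam2 rose (3.07 ± 0.47, adjusted p = 0.00120, and 3.02 ± 0.52, adjusted p = 0.00269). The mesenchymal cells whose markers were higher in A5-positive libraries also make Jam2 and Jam3, and the part of such cells was not tested. Of 9 gap junction genes 2 rose with the block (Panx1 among them), also near that share, and none without it. Between genotypes none of the 53 was called without the block; with it 11 rose and 1 fell, beside 6.97% of all genes higher and 5.13% lower. Among them were Marveld3 (0.64 ± 0.11, adjusted p = 0.0105) and Mpp5 (0.58 ± 0.093, adjusted p = 0.00892) of tight junctions, Nectin3 (0.65 ± 0.12, adjusted p = 0.0105) of adherens junctions, and Dsc1, which fell (-0.55 ± 0.082, adjusted p = 0.00793).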

How the data were processed

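RNA of sorted wound epithelium was sequenced in 12 libraries (SMART-Seq v4 for low input, then ThruPLEX), per the labels' protocols. The tools bcl2fastq, Trimmomatic 0.36, STAR, featureCounts and build mm10 (GRCm38) are named in the submitters' processing notes. The deposited values are raw read counts per gene symbol, not normalized by the authors; annotation release, strand setting and handling of multimapping reads are not stated there. Of 55341 rows, 26 whose symbols had become dates (0.110% to 0.128% of a library's counts) were left out and 55315 used; 0 columns of values were unused. Exon lengths and overlaps came from the GENCODE annotation of GRCm38.

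Counts were fitted with edgeR 4.0.16 (R 4.3.3): TMM factors (0.919 to 1.08), the group-aware low-count filter (16677 genes), and 1 coefficient per group over all 12 libraries, with Benjamini-Hochberg adjustment in each of 7 comparisons. A fit with the library number as a block was set beside it. The labels do not say what the number stands for. Residuals of same-numbered libraries correlated at 0.104 to 0.716 (18 pairs, median 0.414, 9230 genes), so the numbers were taken to pair libraries. Those of differently numbered ones had a median of -0.194. The 3 residuals of a group sum to 0, so a positive value for equal numbers forces a negative one here, which is no separate evidence. P-values measure the spread between libraries, each from a pool of mice. For the genotype over both fractions this is not the spread between pools if both fractions of a number came from the same mice. Data were also simulated for the fractions of wild-type mice over 16677 genes. An effect of the library number was put into these counts, and only genes above a minimum level were changed. Without the block, 56% of log2 changes of 1 and 97% of 2 were recovered (0 false calls). With it, 86% and 100% were recovered (12 false calls). The gain with the block was thus built in and does not show that the block suits the measured libraries. Alternatives were RLE factors, DESeq2 1.42.0, voom with quality weights (limma 3.58.1), no filter, a stricter filter (5 CPM in 3 libraries), the compared libraries only, and leaving out each library. The members and lists were chosen with earlier results of these data known. Library values are given for every member called in any comparison; other junction genes are named by the smallest p, at most 3 per class and comparison. A few genes of these lists and the check of the genotype labels are not reported here.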

Additional observations from a re-analysis of the deposited data

Results flagged for a closer look

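The summed level of the 10 desmosome genes stood out because it lay on opposite sides of wild type in the 2 fractions. In A5-positive cells the RORγt-deficient mean was 0.858 times the wild-type mean, lower in 3 of 3 pairs of equal number. In A5-negative cells it was 1.09 times the wild-type mean, higher in 3 of 3 pairs, but 1.013 times when wild-type A5-negative library 1 was left out, an omission chosen after seeing the data. That library had 12196 CPM, against 15230.3 and 15592 CPM in the other wild-type A5-negative libraries, and the most immune cell markers. Leaving out each library in turn gave ratios of 0.817 to 0.887 in A5-positive and 1.013 to 1.14 in A5-negative cells. The difference between the fractions in this sum was not tested. In the interaction test of single genes none of the 10 desmosome genes was called by edgeR with or without the block, with a smallest adjusted p of 0.914 among the 35 junction genes.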

How the results depend on the processing

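Single values were recomputed only for the 64 results of a member in a comparison called without or with the block. None of their 1579 recomputed values changed direction, which this choice of called results made likely beforehand. Of these values 1169 stayed on their side of the threshold, 346 passed it only in the alternative and 64 passed it only as reported. For the fractions in RORγt-deficient mice (2 genes called), 5 were called with DESeq2, 1 with only the compared libraries and 13 with the replicate block. For the fractions in wild-type mice (1 called), 6 were called with DESeq2, 5 with no filter, 2 with voom and 16 with the replicate block. Shares of all genes called with DESeq2, voom, no filter or only the compared libraries are not given. The counts in those settings therefore show no change particular to junction genes. Over both genotypes (11 called) the replicate block gave 22. Between genotypes (0 called) it gave 2 in A5-positive cells and 11 over both fractions, and 0 in A5-negative cells and for the interaction. The cause was not tested. Leaving out each library gave 0 to 3 calls without and 3 to 13 with the block for the fractions in RORγt-deficient mice, 0 to 4 and 3 to 16 in wild-type mice, and 5 to 18 and 17 to 23 over both. With the block, 20 genes were called over both genotypes when library 2 of wild-type A5-negative cells was left out, and 21 when it was their library 1 or RORγt-deficient A5-negative library 2. For the fractions in wild-type mice 10 were called without wild-type A5-negative library 2, and in RORγt-deficient mice 7 without A5-positive library 1. For the genotype over both fractions 10 were called without RORγt-deficient A5-positive library 3. Without and with the block, the omissions gave for the genotype 0 and 0 to 8 in A5-positive cells, and 0 and 0 to 12 over both fractions. Over all genes the block gave 5661 calls for the fractions over both genotypes, against 3039 without it, and 2018 for the genotype over both fractions, against 9.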
